A study of Mus musculus with 19 samples.

Results

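The genes described here are 9 feedback inhibitors of MAP kinase signaling, namely the phosphatase genes Dusp2, Dusp4, Dusp5, Dusp6 and Dusp10, the Sprouty genes Spry1 and Spry2, and the Spred genes Spred1 and Spred2. They were selected by symbol (DUSP2, DUSP4, DUSP5, DUSP6, DUSP10, SPRY1, SPRY2, SPRED1 and SPRED2, in capitals as in the table), and all 9 were found among the 24982 genes of the deposited count table. Of these, 8 passed the filter on low counts and were tested together with 11464 genes in all, whereas Spry2 did not pass it. The counts came from bulk RNA sequencing of regulatory T cells (Tregs), with RNA from 50000 sorted cells per sample. Every library came from Foxp3DTR mice, in which a diphtheria toxin receptor and GFP expressed from the Foxp3 locus mark Tregs, and CD4+ GFP+ cells were sorted by high or low CD44 staining from the axillary, brachial and inguinal lymph nodes that drain the injury site. Injured mice had a full-thickness burn of 20% of the body surface (water at 90 °C for 9 seconds) and were used 7 days later. Uninjured mice went through the same procedure with water at room temperature, so both groups shared ketamine, xylazine, buprenorphine, saline and atipamezole. Mice in the study were 8 to 16 weeks old, and the sex of the mice behind each library was not given. There were 4 uninjured CD44high, 5 uninjured CD44low, 4 injured CD44high and 6 injured CD44low libraries. Whether a library came from 1 mouse or a pool was not given, so the p-values measure the spread between these libraries.

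T cell receptor and cytokine signals pass through RAS, RAF and MEK to the kinase ERK, and active ERK induces the transcription of its own inhibitors. The dual-specificity phosphatases remove phosphate from MAP kinases. The products of Dusp2, Dusp4 and Dusp5 act in the nucleus, that of Dusp6 holds ERK in the cytoplasm, and that of Dusp10 acts mainly on p38 and JNK, the stress-activated relatives of ERK. Sprouty and Spred proteins act further upstream on RAS and RAF, and the transcripts of many of these genes are short-lived and are widely read as a record of recent ERK activity. CD44 is a surface receptor that rises on T cells with antigen experience, and CD44high and CD44low Tregs are commonly taken as effector and resting Tregs.

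The sequences of 4 promoters are shown because Dusp2 and Dusp5 carried the opposite changes after injury that are described below, and Dusp10 and Spry1 had the smallest p among the members for the difference between the CD44 subsets, in uninjured and injured mice. Each run is the 250 bases before the gene start in the RefSeq table for GRCm38.p6, on the plus strand and read 5′ to 3′, at chr2:127335909-127336158 for Dusp2, chr19:53528895-53529144 for Dusp5, chr1:184034131-184034380 for Dusp10 and chr3:37639697-37639946 for Spry1. Capitals mark matches to GGGCGG or its complement, the letters bound by SP and KLF factors, and in addition CACGTG (an E-box) in Dusp2 and a pair of adjoining CArG boxes, the letters bound by serum response factor, in Dusp5.
Dusp2: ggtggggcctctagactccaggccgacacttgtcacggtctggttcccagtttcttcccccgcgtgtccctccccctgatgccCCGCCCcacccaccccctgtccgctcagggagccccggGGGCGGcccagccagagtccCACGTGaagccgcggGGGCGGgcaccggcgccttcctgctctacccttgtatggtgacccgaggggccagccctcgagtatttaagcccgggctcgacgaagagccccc
Dusp5: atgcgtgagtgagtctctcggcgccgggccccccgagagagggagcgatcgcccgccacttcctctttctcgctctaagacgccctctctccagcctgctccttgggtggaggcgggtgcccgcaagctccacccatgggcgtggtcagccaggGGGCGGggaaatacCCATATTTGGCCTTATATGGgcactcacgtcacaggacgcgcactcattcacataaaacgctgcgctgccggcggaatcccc
Dusp10: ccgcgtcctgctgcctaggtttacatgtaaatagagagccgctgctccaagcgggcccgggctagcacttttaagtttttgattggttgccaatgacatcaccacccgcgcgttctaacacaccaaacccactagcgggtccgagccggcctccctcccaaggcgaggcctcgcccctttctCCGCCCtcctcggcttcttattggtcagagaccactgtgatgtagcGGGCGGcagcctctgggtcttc
Spry1: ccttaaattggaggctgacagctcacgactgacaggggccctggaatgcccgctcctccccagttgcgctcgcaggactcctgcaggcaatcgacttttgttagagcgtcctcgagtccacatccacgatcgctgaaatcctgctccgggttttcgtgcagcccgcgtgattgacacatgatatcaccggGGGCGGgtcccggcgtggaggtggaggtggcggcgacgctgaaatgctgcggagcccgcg
Among the 8 members with a promoter in the table, GGGCGG was found on either strand in 6, against 32.7% of all 32851 promoters in the table. This motif is made of G and C alone, and the promoters shown were 59.6% to 70.4% G and C. The part of base composition in this share was not tested. The CArG box was found in 1 of 8 (Dusp5, with 2 matches that do not overlap) against 1.47% of promoters, and CACGTG in 1 of 8 (Dusp2) against 6.02%. These last motifs were looked for after the sequences had been seen. None of the 8 held TGANTCA (AP-1, in 6.75% of promoters), TGACGTCA (CRE, in 1.55%) or CCGGAA (ETS, in 12%) within these 250 bases, which says only that these letters are not in this window. Dusp4 has no entry in the table.

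Library totals lay between 5582234 and 9433610 counts. Cd44 stood at 595 ± 37.5 CPM (SD, n = 4) in uninjured CD44high and 133 ± 16.1 CPM (SD, n = 5) in uninjured CD44low libraries, and at 436 ± 54.6 (SD, n = 4) and 117 ± 18.2 CPM (SD, n = 6) in injured ones, so all libraries fell on the side of the sort that their labels give. CPM here is the count scaled to library size with TMM factors. The Treg markers Foxp3, Cd4, Cd3e, Il2ra, Ikzf2 and Ctla4 were detected in every group and summed to between 3140 and 4377 CPM. Group means ran from 70.7 to 115 CPM for Foxp3 and from 1371 to 1463 CPM for Cd3e, which all T cells express. The markers did not move together. In uninjured CD44high against CD44low libraries the means were 1051 against 211 CPM for Ctla4, 228 against 121 for Ikzf2 and 543 against 834 for Il2ra. The injured CD44low libraries 1_2, 4_2 and 5_2 bear an added number that the labels leave unexplained, and results that rest on these 3 are given with and without them. Markers of other cells were low beside the sum of the Treg markers but moved with the groups. In some groups the sums for B cells or for macrophages and dendritic cells reached the level of Foxp3 alone. The 5 macrophage and dendritic cell markers (Lyz2, Csf1r, Adgre1, Itgax and Cd14) summed to between 60.02 and 131 CPM in uninjured CD44high against 19.8 to 37.2 CPM in uninjured CD44low libraries, and to between 80.4 and 221 against 31.5 to 140 CPM after injury, with Cd14 at 0 in uninjured CD44high libraries. The 3 neutrophil markers (S100a8, S100a9 and Ly6g) summed to at most 1.69 CPM without injury and to between 1.06 and 19.1 CPM in CD44high and 0 and 28.9 CPM in CD44low libraries after injury, with Ly6g at 0 in 3 of the 4 groups. B cell markers summed to between 68.3 and 203 CPM and CD8 T and NK cell markers to between 46.4 and 72.6 CPM over all libraries. Of the stromal markers, Col1a1 reached at most 3.22 CPM, while Pecam1, which T cells also express, stood at 202 ± 14.0 CPM (SD, n = 5) in uninjured CD44low libraries. The part of these cells in the results below was not tested.

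Per length of transcript, Dusp2 was the most abundant of the 9 genes in all 4 groups. Its mean level per kilobase of merged exons ran from 156.6 CPM in uninjured CD44high to 321 CPM in injured CD44low Tregs. Dusp5, Dusp4, Dusp10, Dusp6 and Spry1 followed at between 8.45 and 31.8 CPM per kilobase, and their order changed between groups. Dusp5 came next after Dusp2 in both CD44high groups, and Dusp10 did so in both CD44low groups. Spred1 and Spred2 stood at between 1.03 and 3.16 CPM per kilobase. Spry2 was close to absent, with 0, 4, 2 and 1 reads in uninjured CD44high, uninjured CD44low, injured CD44high and injured CD44low libraries, so no comparison of it was possible.

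**Figure D1:**
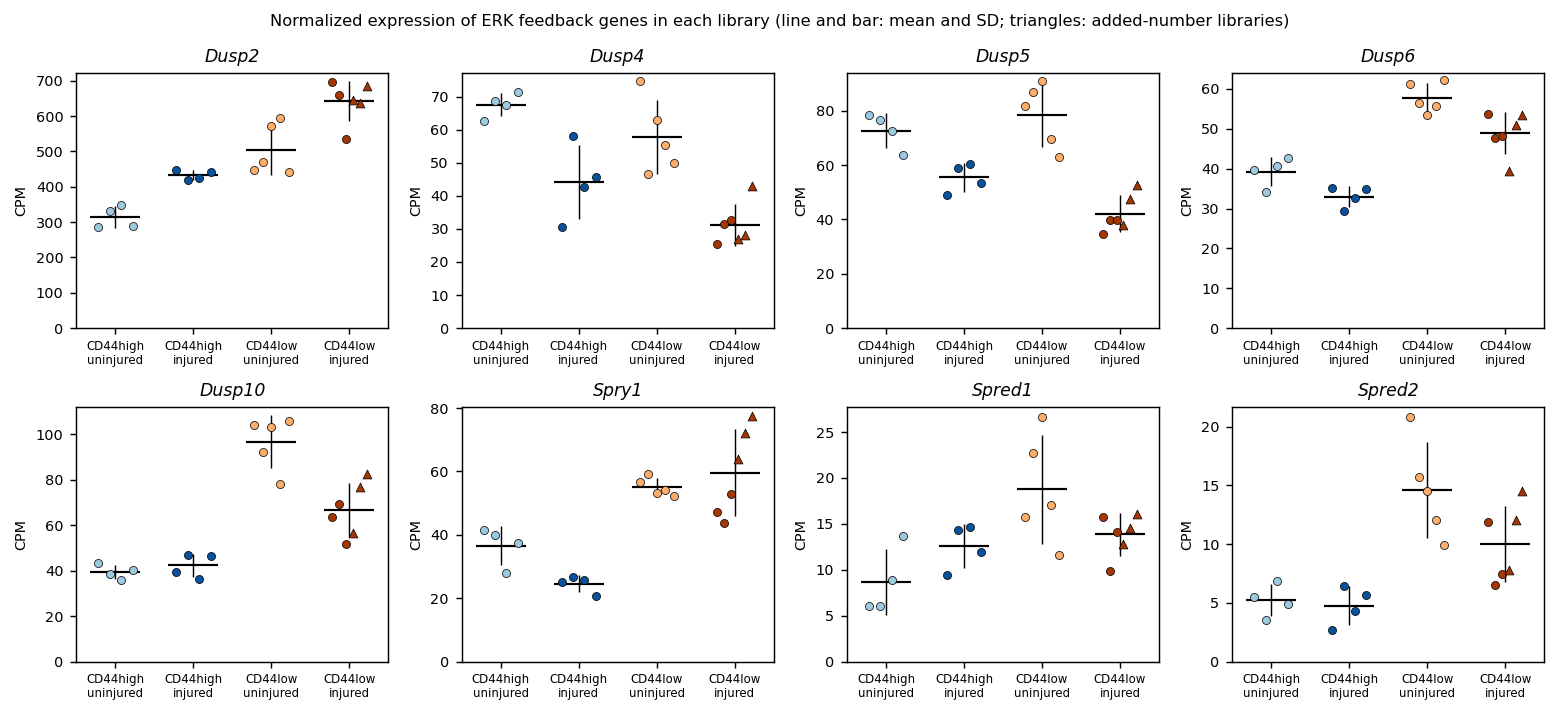
Each panel plots 1 gene, with CPM on a linear axis from 0 and a point for every library. The horizontal line is the group mean, the bar its SD (n = 4, 4, 5 and 6 from left to right), and triangles mark the 3 injured CD44low libraries with an added number. Dusp2 rose from left to right within each subset, Dusp4 and Dusp5 were lowest in injured CD44low libraries, and Dusp6, Dusp10, Spry1 and Spred2 were higher in CD44low than in CD44high libraries within each condition.

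The first question was whether the subsets differ in these inhibitors. In uninjured mice, 6 of the 8 tested members were lower in CD44high than in CD44low Tregs, at between 0.357 and 0.680 of the CD44low level, and none was higher. These were Dusp2, Dusp6, Dusp10, Spry1, Spred1 and Spred2. By the same call (edgeR's quasi-likelihood test, adjusted p under 0.05 with Benjamini-Hochberg adjustment over all genes tested), 21.3% of all genes were lower, 24.7% were higher and 46.1% differed in either direction. In injured mice 5 members were lower (Dusp2, Dusp6, Dusp10, Spry1 and Spred2) and 2 were higher (Dusp4 and Dusp5), against 17.2% of all genes lower, 20.1% higher and 37.4% in either direction. For 5 of the 8 members in each condition, every CD44high library lay below every CD44low one, against 18.8% of all genes in uninjured and 9.20% in injured mice (40.7% and 24.8% did not overlap in either direction). The median log2 difference of the members was -0.64 in uninjured and -0.57 in injured mice, and that of all genes lay within 0.01 of 0 in both. In bulk RNA, fewer cells that express a gene and less RNA per cell cannot be told apart.

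The second question was what injury did within each subset. In CD44low Tregs, Dusp4, Dusp5 and Dusp10 fell and Dusp2 rose, so that 4 of 8 members changed against 7.60% of all genes (3.36% lower and 4.24% higher). In CD44high Tregs, Dusp2 rose, and this was the only member of 8 that passed the test, against 2.38% of all genes (1.06% higher and 1.33% lower). The libraries of injured and uninjured mice did not overlap for 2 members in CD44low Tregs (Dusp4 and Dusp5, both lower, against 2.29% of all genes lower, 2.39% higher and 4.68% in either direction) and for 4 in CD44high Tregs (Dusp2 higher, against 5.91%, and Dusp4, Dusp5 and Spry1 lower, against 7.34%, with 13.3% in either direction). At a stricter threshold, an unadjusted p under 1e-06 with a 2-fold change, the members that passed were Dusp10 in uninjured and Spry1 in injured CD44high against CD44low Tregs, against 8.30% and 6.0% of all genes. With injury 0 members passed it in either subset, against 0.148% of all genes in CD44high and 0.122% in CD44low Tregs, and 0 passed it for the interaction described below, against 0.0872%. Each uninjured library enters both a comparison of subsets and a comparison of injury, so these counts are not independent of each other.

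**Figure D2:**
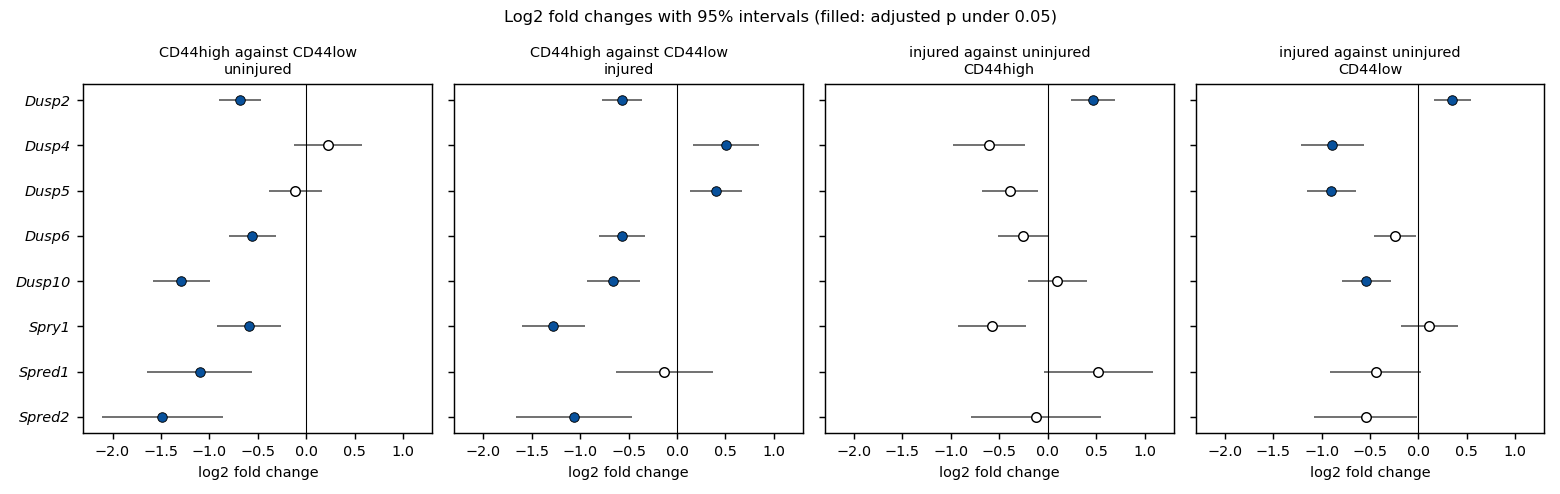
Log2 fold changes of the 8 tested members (horizontal axis) in the 4 comparisons (panels), with bars for 95% intervals and filled points where the adjusted p from edgeR's quasi-likelihood test was under 0.05. Dusp2 lies left of 0 in both comparisons of the subsets and right of 0 in both comparisons of injury, and Dusp4 and Dusp5 lie left of 0 in both comparisons of injury.

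Dusp2, which encodes the nuclear phosphatase PAC-1 of activated lymphocytes, had the most reads of the 9 genes. In uninjured CD44high libraries it stood at 286, 290, 332 and 347 CPM, and in injured ones at 420, 424, 442 and 448 CPM. In uninjured CD44low libraries it stood at 441, 446, 471, 571 and 594 CPM, and in the 6 injured ones the lowest was 536, the median 652 and the highest 697 CPM. All injured CD44high libraries lay above all uninjured ones, CD44high libraries lay below CD44low ones within each condition, and in CD44low Tregs the lowest injured library overlapped the highest uninjured ones. CD44high Tregs held 0.622 of the CD44low level without injury (log2 fold change -0.69 ± 0.10, SE, edgeR adjusted p = 1.01e-05) and 0.674 of it after injury (-0.57 ± 0.10, SE, edgeR adjusted p = 8.81e-05). Injury raised Dusp2 1.38-fold in CD44high (edgeR adjusted p = 0.0193) and 1.27-fold in CD44low Tregs (edgeR adjusted p = 0.0251). Both calls lay near the threshold. In CD44high Tregs the adjusted p rose to 0.0750 without uninjured library 2, 0.0750 without uninjured library 5, 0.0537 without injured library 2 and 0.0626 without injured library 5, and in CD44low Tregs to 0.0564 without uninjured library 1 and to 0.0694 with the compared groups alone, while the log2 change stayed between 0.32 and 0.52 in all 26 alternatives to the fit for both subsets.

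Dusp4 and Dusp5 encode further inducible nuclear phosphatases, of which the product of Dusp5 is specific for ERK. Dusp4 stood at 62.8, 67.6, 68.7 and 71.3 CPM in uninjured CD44high and at 30.7, 42.8, 45.6 and 58.0 CPM in injured CD44high libraries. It stood at 46.6, 49.97, 55.3, 63.0 and 74.6 CPM in uninjured CD44low libraries, and after injury the lowest was 25.3, the median 29.8 and the highest 42.9 CPM. Injured libraries thus lay below uninjured ones in both subsets, and the subsets overlapped in both conditions. In CD44low Tregs Dusp4 fell to 0.540 of the uninjured level (log2 fold change -0.89 ± 0.16, SE, edgeR adjusted p = 0.00187). In CD44high Tregs the injured level was 0.656 of the uninjured one and did not pass the test (log2 fold change -0.61 ± 0.18, SE, edgeR adjusted p = 0.0751). It did not pass it in 20 of 26 alternatives to the fit either, with an edgeR adjusted p of up to 0.266 and the smallest log2 change (-0.46) without injured CD44high library 2, and it passed in 6, at an adjusted p between 0.0320 and 0.0499, the lowest with the largest change (-0.77) without injured CD44high library 3.

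Dusp5 stood at 63.7, 72.4, 76.5 and 78.3 CPM in uninjured CD44high and at 49.1, 53.3, 58.8 and 60.6 CPM in injured CD44high libraries. In uninjured CD44low libraries it stood at 63.1, 69.6, 81.9, 87.0 and 91.0 CPM, and in the injured ones the lowest was 34.5, the median 39.9 and the highest 52.8 CPM. As for Dusp4, no injured library reached the lowest uninjured one within its subset. Dusp5 fell to 0.536 of the uninjured level in CD44low Tregs (log2 fold change -0.90 ± 0.12, SE, edgeR adjusted p = 0.00013), and it passed the test in all 26 alternatives to the fit, with log2 changes between -1.04 and -0.82, but did not reach a 2-fold change in the fit reported here. In CD44high Tregs the injured level was 0.764 of the uninjured one (log2 fold change -0.39 ± 0.14, SE, edgeR adjusted p = 0.166). An annotated gene, AC137853.2, overlaps Dusp5 on the other strand and has no entry in the count table, and whether the counting used the strand was not given.

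Between the subsets, neither gene differed past the threshold in uninjured mice, where the 95% interval of the log2 difference of CD44high from CD44low Tregs ran from -0.13 to 0.57 for Dusp4 and from -0.39 to 0.16 for Dusp5. After injury both were higher in CD44high Tregs, Dusp4 1.42-fold (edgeR adjusted p = 0.0196) and Dusp5 1.32-fold (edgeR adjusted p = 0.0177), with libraries that overlapped. These calls were close to the threshold, and that of Dusp4 was lost in 4 and that of Dusp5 in 5 of 27 alternatives to the fit. Among these, that of Dusp4 was lost without injured CD44high library 3 (edgeR adjusted p = 0.119) or injured CD44low library 1 (0.0528). That of Dusp5 was lost without injured CD44high library 4 (0.0607) or injured CD44low library 1 (0.0564). Both were lost with the compared groups alone (0.0587 for Dusp4 and 0.0501 for Dusp5). A block on the label number within injured mice also ended both (log2 0.26 each, edgeR adjusted p = 0.285 for Dusp4 and 0.237 for Dusp5). A block over all groups ended that of Dusp5 (0.108).

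Because Dusp2 moved against Dusp4 and Dusp5 after injury, reads on Dusp2 per read on each of the others were taken within each library, a measure that does not depend on the scaling between libraries. For Dusp5 the ratio was 3.65 to 4.79 in uninjured and 7.00 to 9.12 in injured CD44high libraries, and 5.42 to 8.54 in uninjured and 13.0 to 20.2 in injured CD44low libraries. The mean ratio was 4.34 ± 0.490 (SD, n = 4), 7.89 ± 1.00 (SD, n = 4), 6.53 ± 1.29 (SD, n = 5) and 15.6 ± 2.84 (SD, n = 6), in the same order. For Dusp4 the ratio was 4.06 to 5.14 in uninjured and 7.24 to 14.6 in injured CD44high libraries, and 5.99 to 10.7 in uninjured and 15.95 to 27.5 in injured CD44low libraries. Uninjured and injured libraries did not overlap in either ratio in either subset. The ratios were formed after the values of the genes had been seen and are given as a description, with no test.

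**Figure D3:**
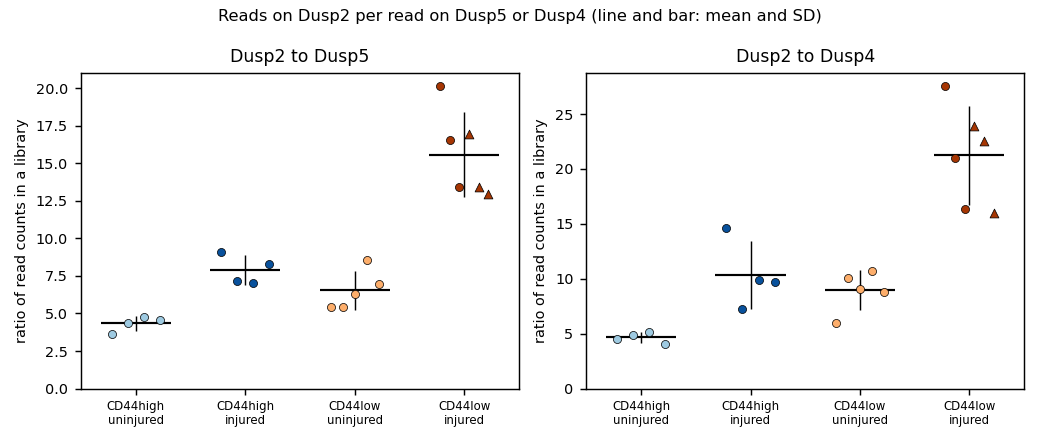
The vertical axis (linear, from 0) is the number of Dusp2 reads per Dusp5 read (left) or per Dusp4 read (right) in each library, with the group mean as a line, its SD as a bar, and triangles for the 3 injured CD44low libraries with an added number. Injured libraries lie above uninjured ones within each subset, with means of 15.6 and 21.2 in injured CD44low Tregs.

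Dusp6 encodes the cytoplasmic phosphatase that is specific for ERK. It stood at 34.1, 39.6, 40.7 and 42.6 CPM in uninjured CD44high and at 53.4, 55.6, 56.6, 61.1 and 62.3 CPM in uninjured CD44low libraries. After injury it stood at 29.4, 32.6, 34.8 and 35.1 CPM in CD44high libraries, and in CD44low libraries the lowest was 39.5, the median 49.6 and the highest 53.7 CPM. The subsets did not overlap in either condition, and the difference between them was nearly the same in both, at 0.680 of the CD44low level without injury (log2 fold change -0.56 ± 0.12, SE, edgeR adjusted p = 0.000464) and 0.674 after it (-0.57 ± 0.11, SE, edgeR adjusted p = 0.000332). With injury the log2 difference was -0.25 in CD44high (95% interval -0.51 to 0.0016, edgeR adjusted p = 0.333) and -0.24 in CD44low Tregs (95% interval -0.45 to -0.03, edgeR adjusted p = 0.145), and neither passed the test.

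Dusp10, whose product acts mainly on p38 and JNK, fell with injury in CD44low Tregs and did not pass the test in CD44high Tregs. It stood at 36.0, 38.5, 40.4 and 43.3 CPM in uninjured and at 36.4, 39.6, 46.6 and 46.7 CPM in injured CD44high libraries. It stood at 78.2, 92.3, 103, 104 and 106 CPM in uninjured CD44low libraries, and after injury the lowest was 51.9, the median 66.3 and the highest 82.5 CPM. All CD44low libraries lay above all CD44high libraries of either condition. CD44high Tregs held 0.409 of the CD44low level without injury (log2 fold change -1.29 ± 0.14, SE, edgeR adjusted p = 7.94e-08) and 0.634 of it after injury (-0.66 ± 0.13, SE, edgeR adjusted p = 0.000444). Injury lowered Dusp10 to 0.690 of the uninjured level in CD44low Tregs (log2 fold change -0.54 ± 0.12, SE, edgeR adjusted p = 0.0109), and the log2 difference in CD44high Tregs was 0.10 (95% interval -0.21 to 0.40). The gene 1700056E22Rik overlaps Dusp10 on the other strand and holds 336 reads over all libraries against 8251 for Dusp10.

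Spry1, the 1 Sprouty gene with reads enough to test, encodes an inhibitor of the RAS to ERK pathway downstream of receptors. It stood at 27.9, 37.4, 39.8 and 41.4 CPM in uninjured and at 20.6, 25.0, 25.9 and 26.8 CPM in injured CD44high libraries. It stood at 52.2, 53.2, 54.2, 56.7 and 59.1 CPM in uninjured CD44low libraries, and after injury the lowest was 43.8, the median 58.3 and the highest 77.6 CPM. The subsets were apart in both conditions, and the injured CD44high libraries were the lowest of all. CD44high Tregs held 0.665 of the CD44low level without injury (log2 fold change -0.59 ± 0.16, SE, edgeR adjusted p = 0.0043) and 0.413 of it after injury (-1.28 ± 0.16, SE, edgeR adjusted p = 7.47e-07). Within CD44high Tregs the injured level was 0.672 of the uninjured one (log2 fold change -0.57 ± 0.17, SE), with an edgeR adjusted p of 0.0746. It did not pass the test in 22 of 26 alternatives to the fit, with an edgeR adjusted p of up to 0.249 (without injured CD44high library 5), and passed in 4, under DESeq2 (0.0327), without uninjured library 4 (0.0415), with library 1 summed with 1_2 and 5 with 5_2 (0.0368) and without the 3 libraries with an added number (0.0160), while the log2 change ran from -0.68 to -0.50. The gene Gm42922 overlaps Spry1 on the other strand and has no entry in the count table.

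Spry1 is given here by the labels of the injured CD44low libraries. It stood at 43.8, 47.3 and 52.8 CPM in libraries 1, 2 and 5, and at 63.8, 72.3 and 77.6 CPM in libraries 1_2, 4_2 and 5_2. The 5 uninjured ones, from 52.2 to 59.1 CPM, lay below the latter 3 and overlapped library 5. Spry1 was the only 1 of the 8 tested members for which these sets did not overlap. That share is not above the 19.3% of all genes. The log2 change of Spry1 with injury in CD44low Tregs was 0.11 (95% interval -0.18 to 0.40, edgeR adjusted p = 0.657) with all 6 libraries and -0.20 (edgeR adjusted p = 0.340) without the 3 with an added number. Without them Spry1 remained lower in CD44high than in CD44low Tregs after injury, with a log2 difference of -0.96 (edgeR adjusted p = 0.000401).

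Spred1 and Spred2 encode membrane-bound inhibitors that recruit neurofibromin to inactivate RAS. They had the fewest reads of the tested members, between 20 and 188 per library, and thus the widest errors. Spred1 stood at 6.06, 6.10, 8.84 and 13.6 CPM in uninjured CD44high and at 11.6, 15.8, 17.1, 22.7 and 26.7 CPM in uninjured CD44low libraries. After injury it stood at 9.43, 11.9, 14.3 and 14.7 CPM in CD44high libraries, and in CD44low libraries the lowest was 9.84, the median 14.3 and the highest 16.1 CPM. The highest uninjured CD44high library overlapped the lowest uninjured CD44low one, and after injury the subsets covered much the same range. CD44high Tregs held 0.466 of the CD44low level without injury (log2 fold change -1.10 ± 0.26, SE, edgeR adjusted p = 0.0014), while after injury the log2 difference was -0.13 (95% interval -0.63 to 0.37, edgeR adjusted p = 0.699).

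Spred2 stood at 3.56, 4.92, 5.53 and 6.84 CPM in uninjured CD44high and at 9.96, 12.1, 14.5, 15.8 and 20.8 CPM in uninjured CD44low libraries. After injury it stood at 2.66, 4.31, 5.63 and 6.46 CPM in CD44high libraries, and in CD44low libraries the lowest was 6.48, the median 9.83 and the highest 14.6 CPM. The subsets did not overlap in either condition, though after injury the highest CD44high and the lowest CD44low library were nearly level. The difference was the widest of the 8 members in uninjured mice, with 0.357 of the CD44low level in CD44high Tregs (log2 fold change -1.49 ± 0.30, SE, edgeR adjusted p = 0.000326), and stood at 0.479 after injury (-1.06 ± 0.29, SE, edgeR adjusted p = 0.0057). That latter call was lost without the 3 libraries with an added number (log2 fold change -0.84, edgeR adjusted p = 0.0546). Neither Spred gene passed the test for injury in either subset.

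Whether injury acted differently in the subsets was tested as an interaction. In edgeR's quasi-likelihood test, after Benjamini-Hochberg adjustment, 0 of the 8 members passed, against 0.645% of all genes, and DESeq2 also called 0. At an unadjusted p under 0.05 there were 4 of 8 (Dusp5, Dusp10, Spry1 and Spred1), against 10.9% of all genes. The log2 change with injury in CD44high Tregs minus that in CD44low Tregs was 0.97 ± 0.35 (SE) for Spred1 (edgeR adjusted p = 0.262), -0.69 ± 0.22 for Spry1 (edgeR adjusted p = 0.178), 0.63 ± 0.19 for Dusp10 (edgeR adjusted p = 0.148) and 0.51 ± 0.19 for Dusp5 (edgeR adjusted p = 0.262). For Dusp2 it was 0.12, with a 95% interval from -0.18 to 0.41. For Spry1 it was -0.37 without the 3 libraries with an added number, the smallest in size of any alternative. Only Dusp10 came past the threshold in any alternative, without the 3 libraries with an added number (0.75, edgeR adjusted p = 0.0316). So the changes seen in 1 subset and not in the other were not shown to differ between the subsets, except for Dusp10 in that alternative.

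The order of the group means also differed among the members. For Dusp2 the order ran from injured CD44low through uninjured CD44low and injured CD44high down to uninjured CD44high Tregs, and only the last step, from 433 to 314 CPM, was free of overlap between neighbors. For Dusp4 it ran from uninjured CD44high down to injured CD44low Tregs, from 67.6 to 31.3 CPM, with overlap at each step. Dusp5 fell from the uninjured groups (78.5 and 72.7 CPM) to the injured ones (55.4 and 42.1 CPM), and only the step between the conditions was free of overlap. For Dusp6, Dusp10, Spred1 and Spred2 both CD44low groups came before both CD44high groups, and of the neighbors only injured CD44low and injured CD44high Tregs in Dusp10 did not overlap. For Spry1 the CD44low groups (59.6 and 55.1 CPM) overlapped each other and lay apart from uninjured CD44high (36.6 CPM), which lay apart from injured CD44high Tregs (24.5 CPM).

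The rest of the pathway was described with 7 hand-written lists of 74 genes, of which 62 were tested. In uninjured mice 32 of these differed between the subsets (11 higher and 21 lower in CD44high Tregs), against 46.1% of all genes, and in injured mice 22 did (8 higher and 14 lower), against 37.4%. With injury 5 of 62 changed in each subset, against 2.38% of all genes in CD44high and 7.60% in CD44low Tregs. For the interaction edgeR called 0 of 62, against 0.645% of all genes, and DESeq2 called 0. At an unadjusted p under 0.05 there were 5 of 62, against 10.9% of all genes.

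Among the other MAP kinase phosphatases, Dusp1, an immediate-early gene whose product acts on p38, JNK and ERK, fell with injury in CD44high Tregs from 722 ± 178 to 248 ± 33.5 CPM (SD, n = 4 each, log2 fold change -1.54 ± 0.27, SE, edgeR adjusted p = 0.00191). In CD44low Tregs Dusp1 stood at 481 ± 88.2 CPM (SD, n = 5) without and 344 ± 162 CPM (SD, n = 6) with injury, a log2 difference of -0.48 that did not pass the test. Dusp9 was higher in CD44high Tregs in both conditions (log2 fold changes 2.81 and 2.79, edgeR adjusted p = 0.00376 and 0.00551), but on 52 and 46 reads in all uninjured and injured CD44high libraries against 9 and 7 in CD44low ones. Dusp7 and Dusp16 passed no test, and Dusp8, with 2, 0, 4 and 4 reads per group, was not tested. The remaining family genes Spry3, Spry4 and Spred3 had at most 8 reads in any group and were not tested.

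In the ERK cascade itself, 11 of 16 genes differed between the subsets in uninjured mice (5 higher and 6 lower in CD44high Tregs), against 46.1% of all genes, and 3 of 16 in injured mice, against 37.4%. Braf, which encodes a RAF kinase, was lower in CD44high Tregs in both conditions (log2 fold changes -0.80 and -0.63). Hras was higher in both (0.64 and 0.37). Rras, a RAS relative, was higher (1.10) and Rras2 lower (-0.54) in uninjured CD44high Tregs. With injury Nras fell in CD44low Tregs (log2 fold change -0.39, edgeR adjusted p = 0.0264). In CD44high Tregs edgeR called 0 of 16 with injury, against 2.38% of all genes, and DESeq2 called 1. At an unadjusted p under 0.05 there were 3 of 16, against 15.1% of all genes.

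Of 12 tested RAS activators and adaptors, 7 differed between the subsets in uninjured mice (2 higher and 5 lower in CD44high Tregs), against 46.1% of all genes, and 6 in injured mice (2 higher and 4 lower), against 37.4%. Rasgrp1, the main RAS exchange factor downstream of the T cell receptor, was lower in CD44high Tregs (log2 fold changes -0.69 uninjured and -0.45 injured), as was Rasgrp2 (-0.41 and -0.71), whereas the adaptors Grb2 (0.38 and 0.28) and Lcp2 (0.40 and 0.32) were higher. With injury in CD44low Tregs Rasgrp1 fell from 622 ± 53.0 CPM (SD, n = 5) to 415 ± 102 CPM (SD, n = 6, edgeR adjusted p = 0.0193), and Lat, the adaptor at the receptor, rose 1.46-fold (edgeR adjusted p = 0.0156). In CD44high Tregs 0 of 12 passed with injury by edgeR, against 2.38% of all genes, and 0 by DESeq2. At an unadjusted p under 0.05 there were 0 of 12, against 15.1% of all genes. Of the 8 tested RAS GTPase-activating proteins, which switch RAS off, 2 were higher and 4 lower in uninjured CD44high Tregs, against 46.1% of all genes. In injured mice 1 was higher and 3 were lower, against 37.4%. Rasa2, Rasa3 and Rasal3 were lower in both conditions, with log2 fold changes between -0.96 and -0.36. Dab2ip was higher in both (2.07 and 2.40), on 62 and 97 reads in CD44high against 18 and 21 in CD44low libraries. Rasa4 was higher in uninjured CD44high Tregs (1.03). Rasal1 was lower in uninjured CD44high Tregs (-1.14, edgeR adjusted p = 0.00535). It rose with injury in CD44high Tregs from 6.41 ± 1.70 to 15.6 ± 3.31 CPM (SD, n = 4 each, edgeR adjusted p = 0.0369). This call was lost in 7 of 26 alternatives to the fit, each of them the fit without 1 of 7 CD44high libraries. In CD44low Tregs Rasal1 stood at 14.2 ± 7.32 CPM (SD, n = 5) without and 17.1 ± 5.55 CPM (SD, n = 6) with injury.

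Genes that ERK induces did not move as a block. Myc was lower in CD44high than in CD44low Tregs in both conditions (log2 fold changes -1.42 and -1.25, edgeR adjusted p = 8.48e-11 and 6.82e-10) and rose with injury in CD44high Tregs (0.45, edgeR adjusted p = 0.0217). Fos, an immediate-early gene, fell with injury in CD44high Tregs from 364 ± 139 to 34.9 ± 9.31 CPM (SD, n = 4 each, log2 fold change -3.38 ± 0.66, SE, edgeR adjusted p = 0.00458), and Phlda1 fell there as well (-0.80, edgeR adjusted p = 0.0182). Junb fell with injury in CD44low Tregs (-0.92, edgeR adjusted p = 0.0176), with libraries that overlapped. In CD44high Tregs Junb changed by -0.84 and did not pass the test (edgeR adjusted p = 0.106), though the libraries did not overlap. Fos in CD44low Tregs stood at 254 ± 72.4 CPM (SD, n = 5) without and 92.5 ± 91.7 CPM (SD, n = 6) with injury, and did not pass the test. Mcl1, a survival gene, was lower in CD44high Tregs in both conditions (-0.46 and -0.37), and Etv5, a factor of the ETS family, was higher in CD44high Tregs after injury (0.60, edgeR adjusted p = 0.0231). Of the 13 genes tested on this list, 2 differed between the subsets in uninjured mice (46.1% of all genes), 5 in injured mice (37.4%), 3 with injury in CD44high (2.38%) and 1 with injury in CD44low Tregs (7.60%).

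Among the p38 and JNK kinases and the kinases that activate them, 9 genes were tested. Of these, 5 differed between the subsets in uninjured mice (1 higher and 4 lower in CD44high Tregs), against 46.1% of all genes. In injured mice 3 did (1 higher and 2 lower), against 37.4%. Map2k3, an activator of p38, was higher in CD44high Tregs, at 232 ± 7.39 against 82.0 ± 5.597 CPM without injury (SD, n = 4 and 5, 2.83-fold, edgeR adjusted p = 2.16e-12) and 270 ± 21.3 against 102 ± 6.89 CPM after it (SD, n = 4 and 6, 2.65-fold, edgeR adjusted p = 3.87e-12). It rose with injury in CD44low Tregs (0.31, edgeR adjusted p = 0.0220). Mapk14, which encodes p38 alpha, was lower in CD44high Tregs in both conditions (-0.51 and -0.34), and so was the JNK activator Map2k7 (-0.60 and -0.70). Mapk11, another p38 gene, was lower in uninjured CD44high Tregs (-0.54).

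Some of these calls on pathway genes lay near the threshold. In injured CD44high against CD44low Tregs, that of Hras was lost in 19 of 27 alternatives to the fit, that of Braf in 6, Etv5 in 5, Lcp2 in 4, Grb2 in 2 and Mapk14 in 1. With injury in CD44low Tregs, Nras lost its call in 8 of 26, Junb in 3, Rasgrp1 in 2 (without uninjured library 1 or injured library 1) and Map2k3 in 2, and with injury in CD44high Tregs Myc and Phlda1 lost theirs in 4 each, all of them fits without 1 CD44high library.

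**Figure D4:**
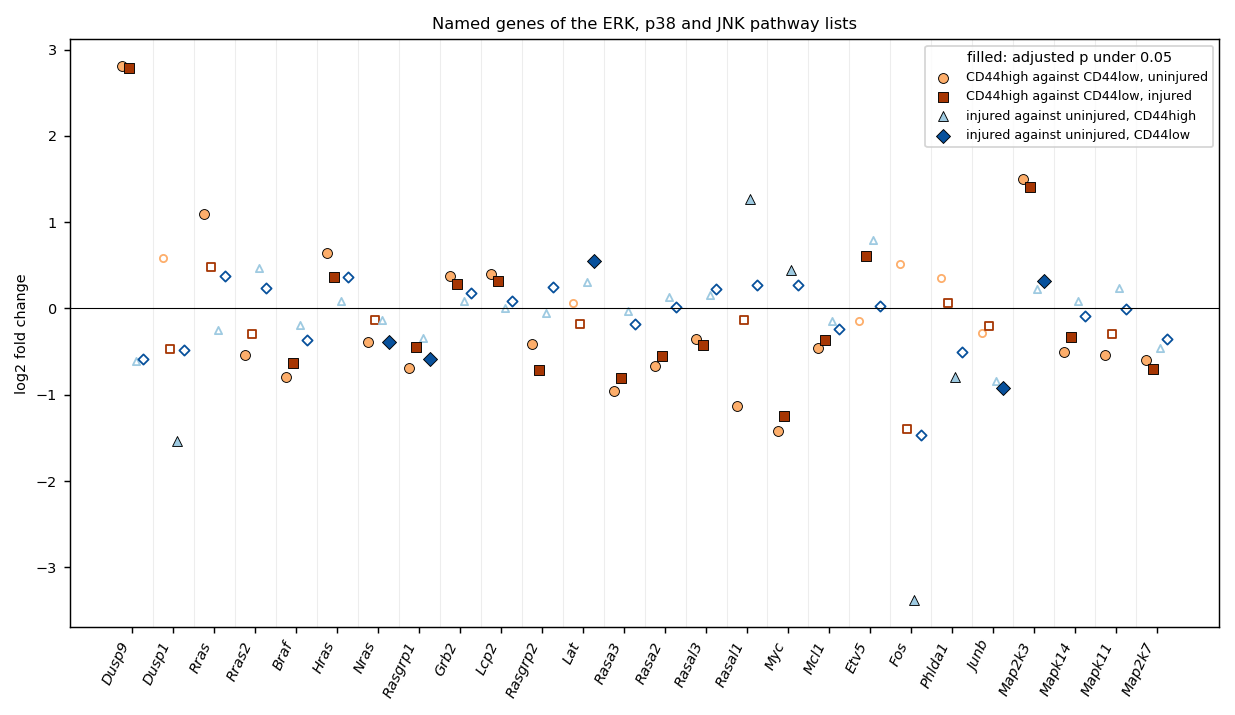
Log2 fold changes (vertical axis) of the named pathway genes in the 4 comparisons, marked by shape and color, with filled symbols where the adjusted p from edgeR's quasi-likelihood test was under 0.05. Map2k3 lies near 1.5 and Myc near -1.4 in uninjured CD44high against CD44low Tregs, and Fos (-3.38) and Dusp1 (-1.54) have the lowest filled symbols for injury in CD44high Tregs.

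Last, the genes whose profile was most like that of each member were sought by the root-mean-square difference of centred log2 CPM over the 19 libraries, among all genes tested. Nearest to Dusp2 were Selenoo (0.15) and Fas (0.17), to Dusp4 Sun1 (0.21) and Fmr1 (0.22), to Dusp5 Tob2 (0.21) and Zc3hav1 (0.22), and to Dusp6 Dcaf8 (0.15) and Snrk (0.15). Nearest to Dusp10 were Inpp4b (0.20) and Pwp2 (0.20), to Spry1 Klf2 (0.21) and Znrf1 (0.23), to Spred1 Ehd3 (0.30) and Ccdc50 (0.31), and to Spred2 Mybbp1a (0.24) and 4930599N23Rik (0.30). Among the members, only Dusp4 and Dusp5 came close to each other in this way, with a difference of 0.25 that placed Dusp5 at rank 7 for Dusp4 and Dusp4 at rank 13 for Dusp5. For the other members the nearest member stood between rank 50 (Dusp10 for Spred2) and rank 1511 (Dusp6 for Dusp2).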

How the data were processed

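Sorted Tregs were profiled by bulk RNA sequencing (SMART-Seq cDNA, Swift libraries). The authors ran STAR within the VIPER workflow and deposited raw counts per gene for each library, not normalized. The submitters' processing notes name STAR 2.5 and bcl2fastq 2.18, and both mm9 and mm10 with no role. The annotation, and whether the counting used the strand, were not given in the sources used here. All 19 columns were mapped to samples by their labels.

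The tools were edgeR 4.0.16 (with limma 3.58.1), DESeq2 1.42.0, R 4.3.3, Python 3.11.15 and matplotlib 3.10.9. Genes were filtered by expression at a minimum count of 10, which left 11464 of 24982, and fitted with TMM factors and 1 mean per group over all 4 groups. Comparisons used edgeR's two-sided quasi-likelihood test with Benjamini-Hochberg adjustment over all genes tested, at an adjusted p under 0.05. CPM are scaled by TMM, log2 CPM used a prior count of 2, and 95% intervals use the moderated degrees of freedom. The depth of 5582234 to 9433610 counts per library sets the counting error, and reads carry no molecular identifiers.

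The members and all gene lists were chosen with earlier results of these data known. Named were all members, the sort and Treg markers, from each pathway list up to 3 genes of smallest p per comparison among those called, all members of a list under 5 genes, and for each member the nearest 2 genes by profile. Dusp7, Dusp8, Dusp16, Dab2ip and Rasa4, and values of named genes in further comparisons, were added after their values were seen. A withheld item that the rule named is not reported here. Promoters came from the RefSeq table, and exon lengths and overlapping genes from GENCODE vM21. Libraries within a group differed by more than counting noise (chi-square per gene 4.96 to 41.3 over 37 pairs), so none was merged. Alternatives were DESeq2, RLE factors, a fit to the compared groups alone, no filter, replicate blocks, other thresholds, each library left out in turn, leaving out libraries 1_2, 4_2 and 5_2, and summing 1 with 1_2 and 5 with 5_2. The tests were tried on simulated data.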

Additional observations from a re-analysis of the deposited data

Results flagged for a closer look

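In 35 checks of members in groups of 4 to 6 libraries, 1 library stood apart from the rest of its group by Dixon's test at the 95% level. For normally distributed values chance gives this in about 1 of 20 groups. The library was injured CD44low library 5 for Spry2, at 0.143 CPM from 1 read, with the other 5 libraries of the group at 0. Any read in 1 library alone, with the rest at 0, is flagged in this way, so no conclusion is drawn from it.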

How the results depend on the processing

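Of the member results under the alternatives, 1010 kept their direction and side of the threshold, 16 fell below it, 12 came above it and 10 changed sign. The count of members called kept to within 1.5 times of 6 (uninjured) and 7 (injured) for CD44high against CD44low Tregs and of 4 for injury in CD44low Tregs, other than under stricter thresholds. With a 2-fold change required as well, these counts were 3, 2 and 0, and 0 for injury in CD44high Tregs. Of the 11464 genes tested, 2306, 1666, 143 and 86 passed in the same order. With a p under 1e-06 and a 2-fold change, the counts of members were 1, 1, 0 and 0, against 951, 688, 14 and 17 of all genes. That p was taken here as unadjusted because the methods do not say. For injury in CD44high Tregs the main count of 1 became 3 under DESeq2, 2 with the compared groups alone, 3 without the 3 libraries with an added number and 3 with namesake libraries summed. For the interaction the count of 0 became 1 without those 3 libraries. With each library left out in turn the counts were 6 to 6, 5 to 7, 0 to 2, 3 to 4 and 0 to 0 in the order of the comparisons (uninjured, injured, injury in CD44high, injury in CD44low, interaction). The cause of these differences was not tested.

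Values that changed sign were all near 0 or not called. They were the interaction of Dusp6 (main -0.013, 0.035 with a replicate block and -0.087 to 0.038 with 1 library left out), Spry1 with injury in CD44low Tregs (-0.20 without the 3 libraries with an added number) and Spred2 with injury in CD44high Tregs (-0.31 to 0.082 with 1 library left out).

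Over all genes, injury calls in CD44high Tregs went from 273 to 477 (DESeq2), 601 (compared groups alone), 581 (without the 3 libraries) and 476 (summed). In CD44low Tregs they went from 871 to 1467 (DESeq2), 463 (compared groups alone), 440 (replicate block) and 1748 (without the 3 libraries), and for the interaction from 74 to 210 (DESeq2) and 314 (without the 3 libraries).

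CD44high and CD44low libraries of the same number correlated in their deviations at -0.0068 to 0.12 in uninjured and -0.054 to 0.17 in injured mice. Those of different numbers correlated at -0.080 to 0.039 and at -0.45 to 0.41. Of 8 CD44high libraries, 3 correlated best with their own number, and injured CD44high library 3 had no CD44low library of its number to match. With so few libraries these values cannot decide whether the numbers mark pairs, and the main fit used no block. With a replicate block on the number, 6, 6, 1, 4 and 0 members were called, and 7 and 5 with a block within uninjured and injured mice. Over all genes, the same fits called 5220, 3942, 243, 440 and 57 genes, and 5416 and 3731 with a block within uninjured and injured mice. In injured CD44high against CD44low Tregs the block ended the call of Dusp5 (edgeR adjusted p = 0.108, and 0.237 within injured mice) and, within injured mice, that of Dusp4 (0.285), and within uninjured mice Dusp4 came past the threshold (0.0255). Depth limits Spry2, Spred1 and Spred2 most.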
